A study of Mus musculus with 8 samples.

Results

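Untreated glucagon-producing α-cells of mouse islets were compared with untreated insulin-producing β-cells of the same libraries. The series holds 8 single-cell RNA libraries, made from 2 replicate pools of islets that were each divided over 4 conditions, and both classes were taken from the 2 untreated libraries. A pool came from 10 male C57BL6/J mice of 12 to 16 weeks, and its intact islets stood in culture for 18 h in medium with 5.5 mM glucose, with neither cytokine nor nitric oxide synthase inhibitor, before trypsin dispersed them. The α-cells and β-cells therefore share strain, sex, pool, culture, dispersal and library, no animal can be told from another within a pool, and no cells were sorted: the class of a cell rests on its own hormone RNA. Each captured RNA molecule carries a unique molecular identifier (UMI), and UMIs are counted in place of reads.

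The cells were chosen by measured values, above all by their hormone UMIs. A barcode had 200 to 5500 detected genes in replicate 1 or 200 to 6500 in replicate 2, at most 10% mitochondrial UMIs and at least 3000 UMIs. Over the 6 hormone genes *Ins1*, *Ins2*, *Gcg*, *Sst*, *Ppy* and *Pyy*, an α-cell had at least 50% of its hormone UMIs from *Gcg* and at least 1% of all UMIs from hormones, and a β-cell had at least 95% of its hormone UMIs and at least 10% of all UMIs from *Ins1* and *Ins2*. These limits gave 91 α-cells and 1630 β-cells in replicate 1 and 95 α-cells and 565 β-cells in replicate 2. Together they are 2381 of the 2999 untreated barcodes past the filters (5805 untreated barcodes were deposited, and 17426 in the series), and 618 fell into neither class. Because hormone RNA chose the cells, hormone levels are given here as a description, and the tests cover the other genes only.

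Glucagon raises blood glucose by driving the liver to release it, and insulin lowers blood glucose. Both hormones are cut from prohormones inside secretory granules and leave the cell by calcium-triggered exocytosis, and α- and β-cells arise from a common endocrine progenitor under different transcription factors: Iroquois factors mark the α lineage, and PDX1, NKX6-1 and MAFA serve the mature β-cell. β-cells take up glucose through GLUT2 (*Slc2a2*). They also keep low a set of genes, some of which, such as lactate dehydrogenase, could let them secrete insulin without glucose.

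The DNA next to the start of 2 α-cell and 3 β-cell genes shows which letters the factors described below are known to meet. The genes are the 2 hormones that define the classes (*Gcg* and *Ins1*), *Gc*, the vitamin D-binding protein and a known α-cell gene, and *Slc2a2* and *Ucn3*, 2 of the strongest β-cell genes. The 250 bases before the RefSeq start (GRCm38.p6) are printed 5′ to 3′ on the strand of the gene, and capitals mark TAAT (the core met by homeodomain proteins such as PDX1 and NKX6-1), CAGATG (an E-box met by NEUROD1) and GCTGA (the core of a MAF half-site), each on either strand. *Gcg* lies at chr2:62483654-62483903 (minus strand), *Gc* at chr5:89457899-89458148 (minus), *Ins1* at chr19:52264047-52264296 (plus), *Slc2a2* at chr3:28697653-28697902 (plus) and *Ucn3* at chr13:3945350-3945599 (minus).
Gcg: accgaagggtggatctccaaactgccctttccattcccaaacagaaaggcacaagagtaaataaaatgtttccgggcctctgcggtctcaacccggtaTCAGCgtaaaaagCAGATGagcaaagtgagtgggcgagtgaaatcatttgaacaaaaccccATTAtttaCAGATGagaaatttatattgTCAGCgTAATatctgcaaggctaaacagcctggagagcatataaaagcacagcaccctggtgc
Gc: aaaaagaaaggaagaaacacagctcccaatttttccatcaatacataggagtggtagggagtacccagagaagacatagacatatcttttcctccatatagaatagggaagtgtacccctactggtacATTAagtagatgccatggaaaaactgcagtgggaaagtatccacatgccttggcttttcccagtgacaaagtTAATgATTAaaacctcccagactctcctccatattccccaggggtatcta
Ins1: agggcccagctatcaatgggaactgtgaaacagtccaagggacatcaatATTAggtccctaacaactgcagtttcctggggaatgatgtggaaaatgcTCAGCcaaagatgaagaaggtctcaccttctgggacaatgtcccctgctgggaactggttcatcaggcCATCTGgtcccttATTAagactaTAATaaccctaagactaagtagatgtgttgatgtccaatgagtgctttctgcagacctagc
Slc2a2: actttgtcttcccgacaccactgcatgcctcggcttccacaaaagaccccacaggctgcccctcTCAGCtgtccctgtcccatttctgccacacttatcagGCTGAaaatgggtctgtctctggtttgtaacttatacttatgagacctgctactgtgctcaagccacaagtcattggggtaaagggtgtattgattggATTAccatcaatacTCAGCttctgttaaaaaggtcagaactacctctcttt
Ucn3: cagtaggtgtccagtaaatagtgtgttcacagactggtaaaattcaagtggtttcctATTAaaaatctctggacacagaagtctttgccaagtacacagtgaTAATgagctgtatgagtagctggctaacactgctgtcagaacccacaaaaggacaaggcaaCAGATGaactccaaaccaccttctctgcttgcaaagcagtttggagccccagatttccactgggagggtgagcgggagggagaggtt
The *Gcg* stretch held 2 matches to each of the 3 motifs, *Ins1* held 3 TAAT, 1 CAGATG and 1 GCTGA, and *Gc* held 3 TAAT and neither of the others. *Slc2a2* held 1 TAAT and 3 GCTGA, and *Ucn3* held 2 TAAT and 1 CAGATG. Such short motifs are common. Over 27025 RefSeq promoters cut to the same length, TAAT was found in 55.3%, CAGATG in 14.5% and GCTGA in 46.2%. Of the 706 genes with a promoter in the table that were at least 2-fold higher in α-cells and called, TAAT was found in 40.9%, CAGATG in 11.6% and GCTGA in 48.3%, and of the 847 that were at least 2-fold higher in β-cells in 39.1%, 9.68% and 47.1%, beside 38.6%, 9.10% and 45.4% of the 9291 tested genes with a promoter. A match is a description of letters and not a bound site. *Irx1*, *Mafa* and *Ins2* had no entry in the table used.

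In α-cells *Gcg* made up most of the hormone RNA, and other islet hormones were present beside it in some cells. The median share of *Gcg* among hormone UMIs was 94.2% in replicate 1 and 90.1% in replicate 2, with a lowest cell of 59.2% and 53.3%. *Ppy* and *Pyy* together had a median share of 3.45% and 6.27%, and exceeded 10% in 23 of the 91 and 32 of the 95 α-cells. More of these UMIs came from *Pyy* (14092 and 25942 over all α-cells) than from *Ppy* (5151 and 11220). Insulin RNA exceeded 10% of the hormone UMIs in 2 and 7 α-cells. In 75 and 69 α-cells *Gcg* made up at least 80%. In β-cells the median share of *Ins1* and *Ins2* was 99.9% in both libraries. Hormones took 23% and 20.8% of all UMIs of the median α-cell and 42.1% and 39.5% of the median β-cell. The limits that chose the cells were unequal here, at 1% for α-cells and 10% for β-cells. The lowest cell had 3.06% and 4.17% among α-cells and 10.2% and 10.7% among β-cells. The medians therefore do not compare the hormone RNA of the classes.

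**Figure D1:**
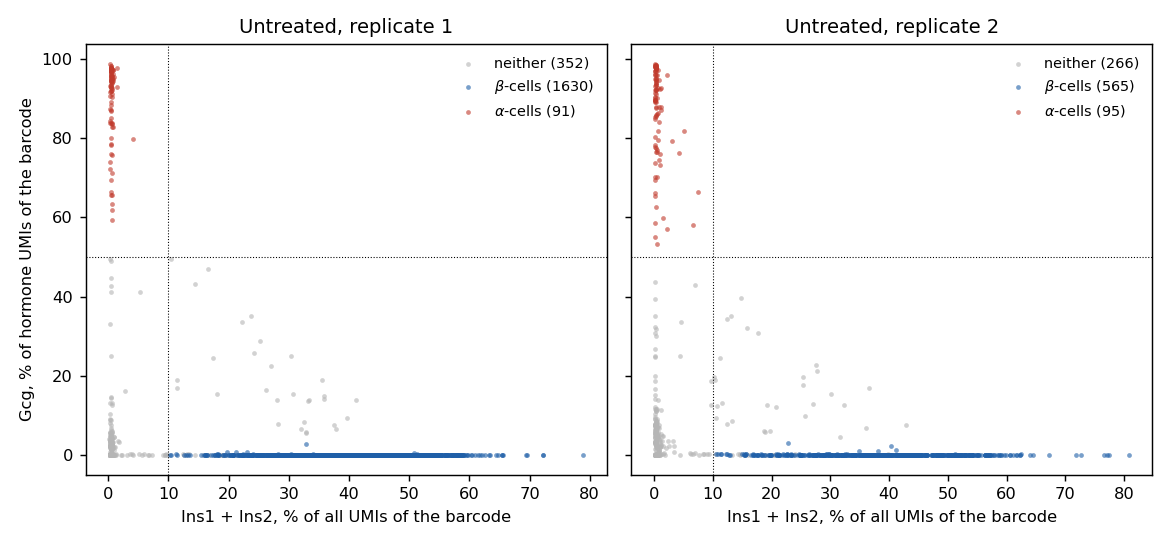
Each point is 1 untreated barcode past the filters, with Ins1 and Ins2 as a percentage of all its UMIs on the x axis and Gcg as a percentage of its hormone UMIs on the y axis, and dotted lines mark the limits at 10% and 50%. The α-cells (red, 91 and 95) sit at the upper left and the β-cells (blue, 1630 and 565) along the bottom, with few barcodes near the α limit.

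Few cells stood close to a limit. For *Gcg*, 1 and 6 α-cells had 50 to 60% of the hormone UMIs and 9 and 2 barcodes outside the class had 40 to 50%. For the insulin share, 13 and 8 β-cells lay between 95 and 97% and 10 and 9 barcodes between 93 and 95%. For the amount of insulin RNA, 4 and 4 β-cells had 10 to 12% of all UMIs and 3 and 3 barcodes had 8 to 10%.

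Depth differed between the classes in the same direction in both libraries. The median α-cell had 11774 and 15880 UMIs, of which 8972 and 12758 were not from hormones, and the median β-cell had 20532 and 26068, of which 11819 and 15598 were not from hormones. A median of 3354 and 3964 genes was detected in α-cells and 3789 and 4455 in β-cells, with mitochondrial shares of 4.42% and 4.32% against 4.78% and 4.14%. Summed over a class and library, non-hormone UMIs came to 883818 and 1280082 for α-cells and 19990532 and 8953123 for β-cells, so the α-cell sums limit the precision. All values below are CPM, the UMIs of a gene per 1000000 non-hormone UMIs of such a sum, given for replicate 1 and then replicate 2. They were scaled by the trimmed mean of M values (TMM). CPM summed over a marker list, and those of somatostatin cells, are the exception and were not scaled by TMM. Such values compare shares of the RNA captured, and less RNA of one gene cannot be told apart from more of all the others.

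Hormone RNA of the other class was found at a low level in each class. In α-cells *Ins1* and *Ins2* together reached 1.02% and 1.34% of their level in β-cells, and in β-cells *Gcg* reached 0.0939% and 0.227% of its level in α-cells. A β-cell gene found in α-cells at about 1% of its β-cell level therefore stands no higher than insulin itself did there. Insulin RNA took part in choosing the α-cells, which bounds its share there, and this share was not scaled by TMM. Shares of other genes set beside it are a description only. Free RNA was not measured, and its part was not tested. Markers of other cell types were low in the sums, with exceptions. A single α-cell of replicate 1 held 374 of the 386 mesenchymal marker UMIs of its class, and *Col1a2* (93.4 and 5.36 CPM in α-cells) follows that cell. Digestive enzyme genes of acinar cells summed to 101.8 CPM in α-cells and 85.2 in β-cells of replicate 1 and were at or near 0 in replicate 2. In β-cells, 1 and 2 cells held 20 or more macrophage marker UMIs and 5 and 0 cells held 20 or more of acinar markers. A single β-cell of replicate 2 held 403 of the 1219 macrophage marker UMIs of its class in that library. Summed over a list, macrophage markers were at 63.4 and 67.2 CPM in α-cells and 131 and 136 in β-cells, endothelial markers at 15.8 and 10.9 CPM in α-cells and 11.2 and 9.61 in β-cells and Schwann cell markers at 52.0 and 56.2 CPM in α-cells and 68.4 and 72.7 in β-cells, and their defining genes (*Lyz2* and *Adgre1*, *Pecam1* and *Cdh5*, *Sox10*) did not pass the low-count filter. Of the macrophage, endothelial and Schwann cell lists, 8 genes were tested, and the 4 called among them (*C1qa*, *Cd68*, *Fcer1g* and *Mbp*) were higher in β-cells. Of all tested genes, 37.2% were called and 19.9% were called higher in β-cells. With all cells of 20 or more such marker UMIs left out (1 α-cell and 8 β-cells), 4433 genes were called in place of the 4396 given below.

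Non-hormone genes differed widely between the classes. With the library as a block, edgeR's quasi-likelihood test with Benjamini-Hochberg adjustment at 0.05 called 4396 of 11808 genes (37.2%), 2048 higher in α-cells (17.3%) and 2348 higher in β-cells (19.9%), and 4373 of the 4396 had the same direction in both libraries, beside 8932 of the 11808 tested. The median log2 difference, α-cells minus β-cells, was -0.0017 over all tested genes, with quartiles of -0.43 and 0.38. Between the libraries of a class, the median absolute log2 difference of a gene was 0.31 in α-cells and 0.18 in β-cells. Of the called genes, 920 were at least 2-fold higher in α-cells and 1123 at least 2-fold higher in β-cells. Only 1 residual degree of freedom remains beside the library block, so the test takes the variance of a gene in part from the other genes. Neither the p-values nor the SE given below are a gene's own spread between the 2 pools. For *Sfrp5*, as an example, the difference was 8.57 in replicate 1 and 6.93 in replicate 2, with an SE of 0.18. DESeq2 called 1824 genes (15.4%), 833 higher in α-cells (7.05%) and 991 higher in β-cells (8.39%), and of the 181 called genes that are named in the text it did not call 17. Where the sums were scaled by total non-hormone UMIs, the median of all genes moved to 0.13 and the split to 2644 higher in α-cells and 1832 higher in β-cells (59.1% against 46.6% higher in α-cells). Small differences on the log2 scale are therefore given relative to the TMM scaling.

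**Figure D2:**
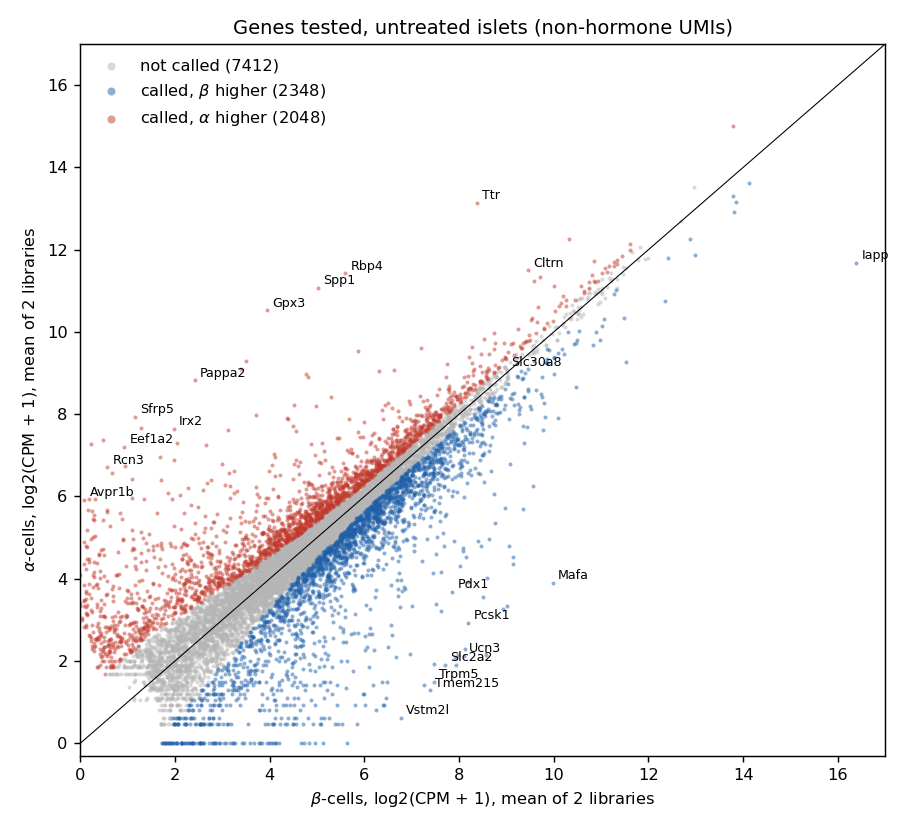
Each point is 1 of 11808 tested genes, with the mean of the 2 libraries as log2(CPM + 1) in β-cells on the x axis and in α-cells on the y axis; the line marks equal levels. Red genes (2048) were called higher in α-cells and blue genes (2348) higher in β-cells; Ttr, Gpx3 and Sfrp5 lie far above the line and Iapp, Mafa and Ucn3 far below it.

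Transcription factors known from the α lineage were higher in α-cells. All 5 listed were tested and called, beside 37.2% of all tested genes, with a median log2 difference of 5.69 beside -0.0017 over all genes. *Irx1* and *Irx2*, Iroquois factors of the α lineage, led the list. *Irx1* was at 203 and 126 CPM in α-cells and 0.421 and 0.35 CPM in β-cells, with a log2 difference of 8.74 ± 0.25 (SE). *Irx2* was at 212 and 186 against 2.0 and 3.85 CPM (6.23 ± 0.17). The classes did not overlap for either gene, as for 62.3% of all tested genes. The POU factor *Pou3f4* (5.69) and the ETS factor *Etv1* (4.24) followed the same order. *Tshz2* was close to even, with 104 and 118 against 78.9 and 77.5 CPM and a difference of 0.51 ± 0.13 that DESeq2 did not call. The largest adjusted p among the 5 was 0.00025 by edgeR's quasi-likelihood test with Benjamini-Hochberg adjustment.

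β-cell transcription factors showed the opposite order with 1 exception. Of 10 listed, 9 were tested, 8 were higher in β-cells and *Bach2* was higher in α-cells, with a median log2 difference of -4.30. All of the tested ones were called, beside 37.2% of all tested genes. *Mafa*, which activates the insulin genes in mature β-cells, was at 1138 and 876 CPM in β-cells and at 11.7 and 16.1 CPM in α-cells, a difference of -6.11 ± 0.19. *Pdx1*, needed for the pancreas and for insulin transcription, was at 241 and 218 against 13.8 and 9.96 CPM (-4.30 ± 0.20). The level of *Mafa* in α-cells was 1.38% of that in β-cells, near the fraction at which insulin RNA was found there, and that of *Pdx1* was 5.17%. *Nkx6-1*, which represses α-cell genes, was at 395 and 313 CPM in β-cells and at 28.7 and 25.3 CPM in α-cells, where it stood at 7.61% of the β-cell level. *Mlxipl*, the glucose-responsive factor ChREBP, differed by -4.55 ± 0.22. No UMI of *Mnx1*, a homeodomain factor of the β lineage, was counted in α-cells, against 28.9 and 26.3 CPM in β-cells, and it was at least 21.1-fold higher there with 3 counts over both α-cell sums as the floor. DESeq2 did not call *Mnx1*. *Bach2*, a repressor of the BACH family, rested on 11 UMIs in α-cells and 6 in β-cells (6.37 and 3.83 against 0.316 and 0 CPM). *Pax4* had no UMI in any of the 4 sums.

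Transcription factors known from islet endocrine cells in general were called equally often in each direction. Of 23 tested, 7 were higher in α-cells, 7 were higher in β-cells and 9 were not called. The list median was 0.02, and 60.9% were called beside 37.2% of all tested genes. The α-higher members were led by *Fev*, an ETS factor of serotonin-producing cells, and by *Id1* and *Id3*, which block DNA binding by basic helix-loop-helix factors. *Fev* was at 27.6 and 43.7 CPM in α-cells and at 0.21 and 0 CPM in β-cells. *Id1* was at 253 and 151 against 1.21 and 1.63 CPM (7.29 ± 0.19) and *Id3* at 291 and 188 against 25.7 and 13.5 CPM. *Isl1*, a LIM homeodomain factor needed by all islet lineages, was a little higher in α-cells (0.51 ± 0.11). Among the β-higher members, *Insm1*, a zinc finger factor of endocrine cells, had the largest difference (-1.46 ± 0.13), followed by *Glis3*, *Foxo1* and *Nkx2-2* (-1.01, -0.97 and -0.72). *Pax6* differed by -0.48 ± 0.11. *Neurod1*, *Foxa2* and *Myt1l* were not called. *Neurod1*, a helix-loop-helix activator of the insulin genes, was at 228 and 251 CPM in α-cells and 255 and 318 CPM in β-cells (-0.26 ± 0.11).

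**Figure D3:**
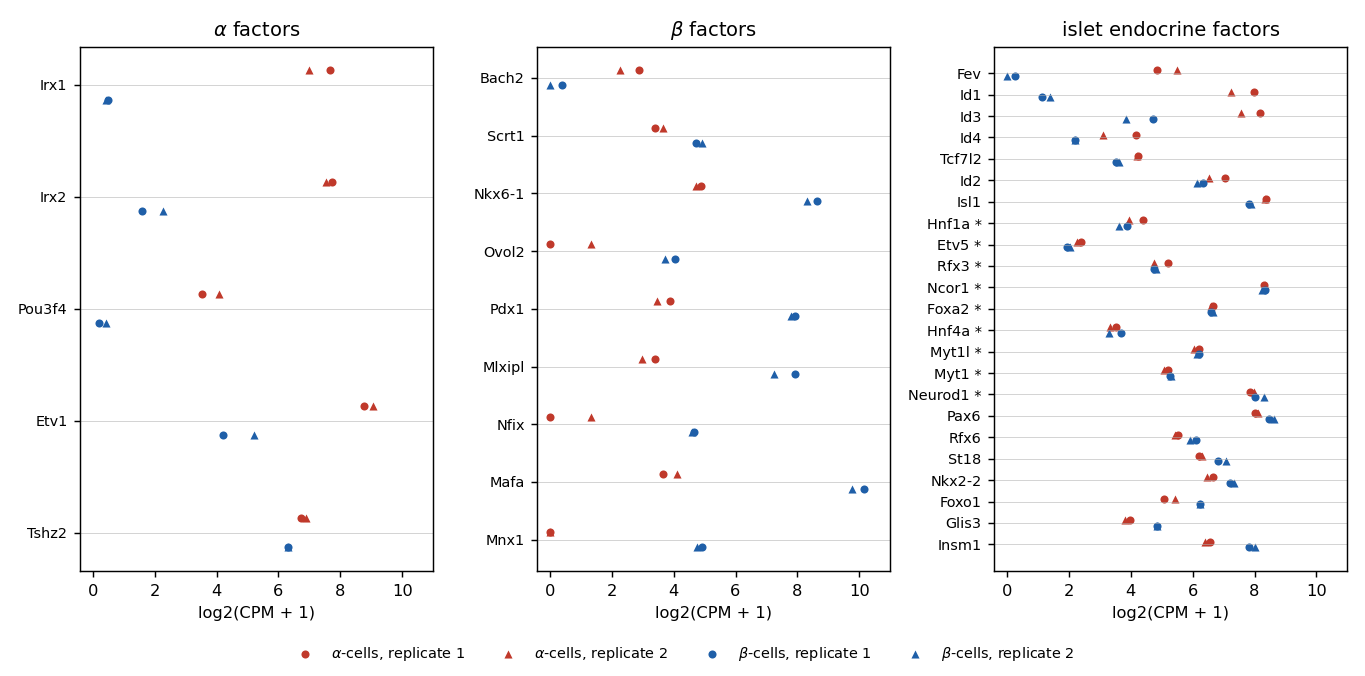
Level of each tested factor in the 2 α-cell sums (red) and the 2 β-cell sums (blue) as log2(CPM + 1), with circles for replicate 1 and triangles for replicate 2, and an asterisk for factors that were not called. The 5 α factors lie higher in α-cells, 8 of 9 β factors higher in β-cells, and 9 of 23 islet endocrine factors were not called.

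The same order was seen cell by cell. Each cell was thinned to 5000 non-hormone UMIs, which left 84 and 86 α-cells and 1590 and 513 β-cells and left out 7 and 9 α-cells and 40 and 52 β-cells that were shallower. *Irx1* then had a UMI in 58.3% and 48.8% of α-cells and in 0.189% and 0.195% of β-cells (69.2% and 67.4% of α-cells and 0.368% and 0.354% of β-cells without thinning). *Irx2* had one in 66.7% and 57% of α-cells and 0.881% and 1.36% of β-cells (75.8% and 75.8% of α-cells and 1.84% and 4.25% of β-cells without thinning). For *Mafa* the shares were 3.57% and 5.81% in α-cells and 86% and 78.4% in β-cells (12.1% and 15.8% of α-cells and 93% and 86.9% of β-cells without thinning). *Etv1* and *Tshz2* were also found in somatostatin cells, barcodes with at least 50% of their hormone UMIs from *Sst*, of which 28 and 8 could be thinned. *Etv1* had a UMI in 71.4% and 50% of those, against 81% and 84.9% of α-cells, *Tshz2* in 60.7% and 75%, against 46.4% and 46.5% of α-cells, and *Gc* in 35.7% and 62.5%, against 91.7% and 83.7% of α-cells. *Neurod1* was found in 65.5% and 66.3% of α-cells and 67% and 71.7% of β-cells, with overlapping exact 95% intervals (75.8% and 86.3% of α-cells and 88.9% and 88.8% of β-cells without thinning). The intervals cover counting error only, and cells of 1 library are not replicates.

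**Figure D4:**
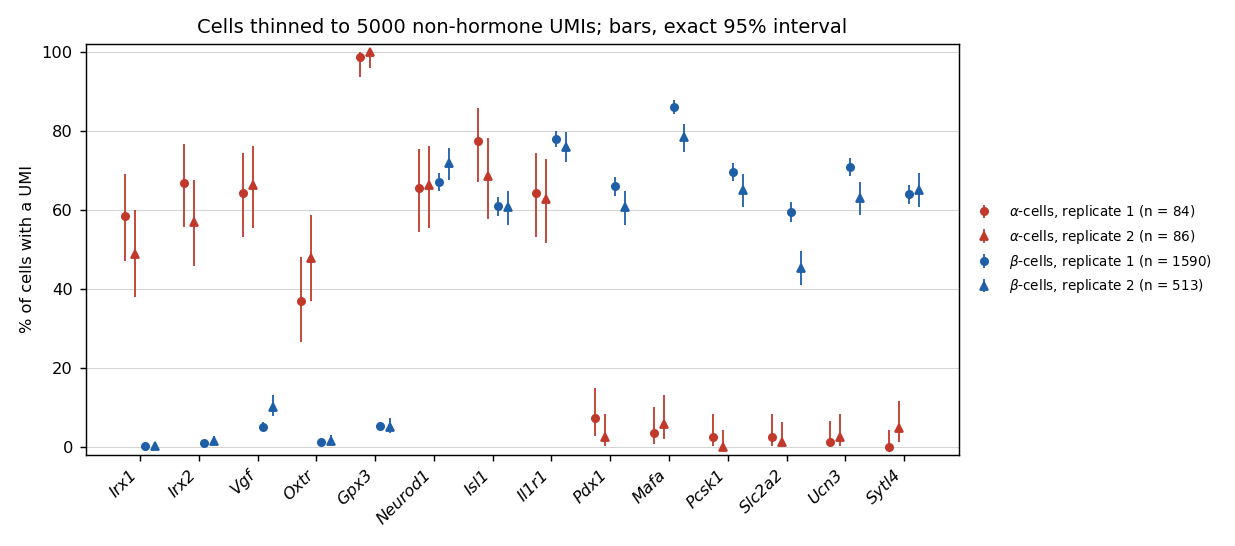
Percentage of cells with at least 1 UMI of each gene after thinning to 5000 non-hormone UMIs, for α-cells (red) and β-cells (blue), circles for replicate 1 and triangles for replicate 2, with exact 95% binomial intervals that cover counting error only. Genes from Irx1 to Gpx3 are mostly found in α-cells, Neurod1, Isl1 and Il1r1 in most cells of both classes, and genes from Pdx1 to Sytl4 mostly in β-cells.

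The 12 genes with the largest called differences in each direction, among those with at least 50 CPM in both libraries of the higher class, came from several functions. In α-cells the first was *Avpr1b*, the V1b receptor for vasopressin, at 54.1 and 64.3 CPM against 1 UMI in all β-cells, a ratio of 1656 with a counting interval of 292 to 65890.0. *Irx1* also stood among the 12. *Pdk4*, a kinase that shuts pyruvate dehydrogenase when fat is burned, was at 50.9 and 70.5 CPM in α-cells against 3 UMIs in β-cells (ratio 572, 192 to 2809). *Rcn3*, a calcium-binding protein of the secretory pathway, was at 104 and 103 against 0.263 and 0.70 CPM (7.93 ± 0.28). *Sfrp5*, a secreted Wnt antagonist, was at 269 and 219.8 against 0.684 and 1.75 CPM (7.89 ± 0.18). *Sgce*, the ε-sarcoglycan gene, and *Eef1a2*, a translation elongation factor of neurons and muscle, differed by 7.83 ± 0.42 and 7.56 ± 0.23, the latter with 8.18 in replicate 1 and 6.65 in replicate 2. *Pappa2*, a protease that frees insulin-like growth factors from their binding proteins, was at 462 and 443 against 3.05 and 5.6 CPM (6.83 ± 0.14), and *Gpx3*, the secreted glutathione peroxidase, at 1467 and 1481 against 13.6 and 15.2 CPM (6.69 ± 0.14). *Id1* and *Slc38a5* were among them too. The choice of these genes fixed their direction in both libraries. Not all of them were particular to α-cells. In the sums of the somatostatin cells (30 and 8), scaled by total non-hormone UMIs, *Sgce* was at 119 and 41.6 CPM (31 and 3 UMIs). *Rcn3* was at 46.2 and 55.4 CPM (12 and 4 UMIs) and *Gpx3* at 870 and 388 CPM there. *Avpr1b*, *Pdk4* and *Irx1* had no UMI in those sums.

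In β-cells the 12 were led by *Vstm2l*, a small secreted protein with an immunoglobulin-like domain, at 106 and 110.5 CPM against 1 UMI in all α-cells, a ratio of 241 (43.2 to 9518). *Gm27033*, a long noncoding RNA at chr5:147280720-147281263 (GENCODE M21, GRCm38) next to *Pdx1* (chr5:147269959-147275848), was at 52.9 and 59.5 CPM against 1 UMI (ratio 124, 22.1 to 4881). *Tmem215*, a membrane protein, was at 181 and 151 CPM against 3 UMIs (ratio 128, 43.9 to 623). *Trpm5*, a calcium-activated cation channel, and *Prlr*, the receptor for prolactin and placental lactogen, differed by -6.59 ± 0.29 and -6.51 ± 0.26. *Rasgrf1*, an exchange factor for Ras, differed by -6.41 ± 0.30. *Ucn3*, the peptide urocortin 3 of mature β-cells, was at 304 and 242 CPM in β-cells and at 2.12 and 4.6 CPM in α-cells (-6.23 ± 0.25), and *Slc2a2* at 247 and 165 against 3.18 and 2.3 CPM (-6.21 ± 0.27). Their α-cell levels were 1.23% and 1.33% of those in β-cells, beside 1.02% and 1.34% for insulin RNA. *Gm17767*, *Msln*, *2410021H03Rik* and *Gpr158* had 2 UMIs each in α-cells, with ratios of 97.2, 106, 86.5 and 73. *2410021H03Rik* (chr17:69275362-69277208) is annotated antisense inside *Epb41l3*. *Trpm5*, *Slc2a2*, *Gpr158* and, of the α-higher genes, *Rcn3* also overlap genes on the other strand, so reads could be divided between them if strand was not used in counting. *Prlr*, *Gm17767* and, of the α-higher genes, *Pappa2* overlap an annotated gene on their own strand, and their counts are uncertain to that extent. Not all of the 12 were particular to β-cells. In the sums of the somatostatin cells, scaled by total non-hormone UMIs, *Rasgrf1* was at 96.24 and 96.97 CPM (25 and 7 UMIs). *Vstm2l* was at 38.5 and 0 CPM (10 and 0 UMIs) and *Gm27033* at 38.5 and 13.9 CPM (10 and 1 UMIs) there. *Prlr*, *Msln*, *2410021H03Rik* and *Ucn3* had no UMI in those sums. *Tmem215*, *Trpm5*, *Gm17767*, *Slc2a2* and *Gpr158* had 1 or 2 in replicate 1 and 0 in replicate 2.

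Secreted, surface and transport genes known from α-cells were higher in α-cells in 14 of 15 tested cases, with a median of 1.51. All 15 were called, beside 37.2% of all tested genes. *Ttr*, the thyroxine carrier transthyretin, was at 9655 and 8366 CPM in α-cells and at 356 and 308 CPM in β-cells (4.76 ± 0.15). *Gc* was at 645 and 440.4 against 7.58 and 11.3 CPM (5.92 ± 0.13), *Cryba2*, a crystallin of endocrine cells, differed by 3.56 ± 0.12, and *Cltrn*, the amino acid transporter partner collectrin, by 2.03 ± 0.12. *Smarca1*, a chromatin remodeller, and *Gria3*, a glutamate receptor subunit, were also higher (3.97 and 1.98). *Peg3* and *Meis2* differed little (0.35 ± 0.11 and 0.33 ± 0.11). *Kcnip1*, a potassium channel partner on the same list, was higher in β-cells, with 40.2 and 43.6 CPM against 1.06 and 2.3. The largest adjusted p among the 15 was 0.00856 by edgeR's quasi-likelihood test with Benjamini-Hochberg adjustment. The 19 members include 4 that did not pass the low-count filter (*Fap*, *Brinp3*, *Fstl1* and *Ptprz1*).

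Of the 23 β-cell surface, secreted and transport genes, all tested, 18 were higher in β-cells, 1 was higher in α-cells and 4 were not called. The list median was -4.29, and 82.6% were called beside 37.2% of all tested genes. *Iapp*, the amyloid peptide co-secreted with insulin, was at 99808 and 70944 CPM in β-cells. In α-cells it stood at 3475 and 3111 CPM, 3.86% of the β-cell level, beside 1.02% and 1.34% for insulin RNA. The choice of the α-cells bounds the insulin share and not that of *Iapp*. *G6pc2*, which turns phosphorylated glucose back into glucose, was at 541 and 589 against 22.3 and 16.9 CPM (-4.88 ± 0.17). *Gad1*, which makes GABA, differed by -5.30 ± 0.35. *Sytl4*, the granule protein granuphilin, was at 236 and 264 CPM in β-cells and at 0 and 6.89 CPM in α-cells. *Hadh*, *Papss2* and *Igf1r* were higher in β-cells by -4.33, -3.71 and -3.45 on the same scale. *Cd24a* was higher in α-cells (1.54 ± 0.38), a call that DESeq2 did not make. The zinc transporter *Slc30a8*, at 634 and 458 CPM in α-cells and 595 and 416 CPM in β-cells, was not called (0.11 ± 0.11), nor were *Slc17a9*, *Npy* and *Dlk1*.

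Prohormone processing genes were called in both directions. *Pcsk1*, the convertase PC1/3 that opens proinsulin, was at 300.2 and 280.4 CPM in β-cells and at 6.37 and 6.89 CPM in α-cells (-5.43 ± 0.22). *Pcsk2*, the convertase PC2 that makes glucagon, was at 2939 and 3528 CPM in α-cells and 2410.4 and 2749.7 CPM in β-cells (0.32 ± 0.12). The inhibitor *Pcsk1n* (0.47 ± 0.12) and the PC2 chaperone *Scg5* (0.57 ± 0.11) were both higher in α-cells. *Cpe*, the carboxypeptidase that trims both prohormones, was at 2083 and 1819.9 against 1823 and 1942 CPM and was not called. *Vgf*, a granin-like precursor of peptides, was at 294 and 303 CPM in α-cells and 12.9 and 30.7 CPM in β-cells (3.88 ± 0.12), and the amidating enzyme *Pam* and *Resp18* were higher in α-cells by 1.26 and 0.90. The granins *Chga*, *Chgb* and *Scg2* were higher in β-cells by -1.10, -0.90 and -1.13. In all, 7 of 14 were higher in α-cells and 5 in β-cells, with a median of 0.22. So 85.7% were called, beside 37.2% of all tested genes. DESeq2 called 7 and 3 and did not call *Chgb*, and without the replicate block *Pcsk2*, *Pcsk1n* and *Scg5* were not called.

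Genes of protein folding in the endoplasmic reticulum were higher in β-cells. Of 29 members, all tested, 27 were higher in β-cells, 0 were higher in α-cells and 2 were not called, with a median log2 difference of -1.30. So 93.1% were called, beside 37.2% of all tested genes. The chaperone *Hspa5* (BiP) was at 850.1 and 788 CPM in α-cells and 1662 and 1961 CPM in β-cells (-1.14 ± 0.12), and *Calr* (calreticulin) at 979 and 803 against 1899.7 and 2149 CPM (-1.19 ± 0.12). *Ero1lb*, the oxidase that feeds disulfide bonds into proinsulin, was at 72.2 and 78.1 against 774 and 726 CPM (-3.31 ± 0.14). *Wfs1*, mutated in Wolfram syndrome with diabetes, was at 10.6 and 15.3 against 115 and 113 CPM (-3.09 ± 0.20). *Sdf2l1*, a partner of BiP, and *Sel1l*, of the degradation complex, differed by -2.30 ± 0.13 and -2.01 ± 0.15. Among the stress factors, *Ddit3* (CHOP) differed by -1.85 ± 0.15, *Atf6* by -1.42 ± 0.16, *Atf4* by -0.73 ± 0.12 and *Xbp1* by -0.56 ± 0.11. *Ero1l* and *Ddit3* also differed between the β-cell libraries, *Ero1l* with 161 and 389 CPM and *Ddit3* with 109 and 244 CPM, and neither was called without the replicate block. *Hsp90b1* and the sensor *Ern1* were not called (-0.18 ± 0.11 and -0.35 ± 0.16). The largest adjusted p among the 27 was 0.0048 by edgeR's quasi-likelihood test with Benjamini-Hochberg adjustment, and DESeq2 called 26.

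Among genes of glucose use, more were higher in β-cells than in α-cells. Of 42 tested genes, 21 were higher in β-cells, 5 were higher in α-cells and 16 were not called. The list median was -0.38, and 61.9% were called beside 37.2% of all tested genes. Apart from *Slc2a2* and *G6pc2*, β-cells had more *Pcx*, the pyruvate carboxylase that refills the citric acid cycle (73.3 and 63.1 against 9.55 and 7.66 CPM, -2.99 ± 0.24), and more *Fh1*, *Idh2* and the glycerophosphate shuttle enzyme *Gpd2* (-1.24, -1.18 and -0.80). Glycolytic *Aldoa*, *Pgk1* and *Pkm* differed by -0.70, -0.74 and -0.75. In α-cells, the high-affinity hexokinase *Hk1* was at 25.5 and 24.5 CPM against 0.105 and 0.583 in β-cells (6.42 ± 0.54), and the neuronal glucose transporter *Slc2a3* at 17 and 17.6 against 0.21 and 0.467 CPM (5.74 ± 0.57). *Ldha*, the lactate dehydrogenase that β-cells keep low, was at 63.7 and 60.5 against 8.68 and 16.8 CPM (2.32 ± 0.20). *Cs*, *Mdh2* and *Idh3a* of the citric acid cycle were not called. Without the replicate block 13 genes of the list were called higher in β-cells in place of 21.

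Of the genes that β-cells are known to disallow, 7 of 20 passed the low-count filter, and 6 of those were higher in α-cells (median 2.59). Of all tested genes 17.3% were called higher in α-cells. They were *Hk1*, *Ldha*, *Oat*, *Mgst1*, *Tst* and *Lmo4*. *Oat*, the ornithine aminotransferase, was at 80.7 and 52.1 CPM in α-cells and 2.0 and 3.27 CPM in β-cells (4.75 ± 0.26), and *Lmo4*, a LIM-only cofactor, at 13.8 and 22.2 against 5.89 and 8.63 CPM (1.31 ± 0.33). *Cat* (catalase) was not called, and the lactate carrier *Slc16a1* was among the 13 that did not pass the filter. A gene low in both classes could not pass it, so the 6 of 7 does not describe the 20.

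Amino acid genes went in both directions. Of 26 tested, 6 were higher in α-cells, 12 were higher in β-cells and 8 were not called (median -0.37). So 69.2% were called, beside 37.2% of all tested genes. *Slc38a5*, the glutamine transporter that rises when glucagon signalling is blocked, was at 151 and 62.8 CPM in α-cells and 0.895 and 0.933 CPM in β-cells (7.0 ± 0.26). Glutamate dehydrogenase (*Glud1*, 0.89 ± 0.12) and the transporters *Slc7a8*, *Slc7a2* and *Slc38a4* (1.12, 0.82 and 0.71) were also higher in α-cells. β-cells had more *Gad1* and more RNA of the large neutral amino acid transporter *Slc7a5* (-1.60 ± 0.18), the serine synthesis enzyme *Phgdh* (-1.87 ± 0.28), the asparagine synthetase *Asns* (-0.95 ± 0.13) and the glutamine synthetase *Glul* (-1.32 ± 0.13). *Ass1*, the enzyme that recycles citrulline to arginine, rested on 1 UMI in α-cells (ratio 16.5, 2.92 to 654).

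Channel genes were called in both directions, and the channel that glucose metabolism closes was not among them. The ATP-sensitive potassium channel subunits *Kcnj11* (40.3 and 49.8 against 40.8 and 36.8 CPM, 0.23 ± 0.18) and *Abcc8* (525 and 498 against 561 and 476 CPM, -0.01 ± 0.11) were not called. Of 32 tested channel and pump genes, 7 were higher in α-cells, 13 were higher in β-cells and 12 were not called (median -0.04). So 62.5% were called, beside 37.2% of all tested genes. *Kcnk3*, the acid-sensitive background potassium channel TASK-1, was at 79.6 and 91.1 CPM in α-cells and 0.737 and 1.52 CPM in β-cells (6.34 ± 0.27). The sodium channel genes *Scn3a* and *Scn3b* (1.10 and 3.35), *Kcnj6* (1.90) and the inositol trisphosphate receptor *Itpr1* (1.52 ± 0.12) were also higher in α-cells. β-cells had more of the calcium pumps *Atp2a2* (935 and 1256 against 219 and 261 CPM, -2.19 ± 0.12) and *Atp2a3* (-2.18 ± 0.15), of *Trpm5* and of the calcium channel subunits *Cacna1d* (-0.93 ± 0.14) and *Cacna1c* (-0.68 ± 0.20). DESeq2 called 6 and 6.

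Exocytosis genes showed different family members in the classes. Of 32 tested, 9 were higher in α-cells, 13 were higher in β-cells and 10 were not called (median -0.08). So 68.8% were called, beside 37.2% of all tested genes. Among the granule GTPases, *Rab3c* and *Rab27b* were higher in α-cells, at 52 and 42.9 against 1.84 and 2.33 CPM and 27.6 and 26 against 2.79 and 1.75 CPM. *Rab3a*, *Rab3b*, *Rab3d* and *Rab27a* were higher in β-cells (-1.23, -1.71, -2.07 and -0.99). The syntaxin *Stx1a* was higher in α-cells (1.95 ± 0.32), and the synaptotagmin *Syt4* was higher in β-cells (-1.84 ± 0.13). *Bace2*, a protease of β-cells, was at 414 and 352 CPM in β-cells and 14.9 and 15.3 CPM in α-cells (-4.64 ± 0.18). *Snap25*, of the fusion complex, was at 169 and 177 against 195 and 174 CPM and was not called. Scaling by total non-hormone UMIs gave 11 and 10 calls, and DESeq2 gave 4 and 9.

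Receptor genes were called in both directions, many with few UMIs in the lower class. Of 48 G protein-coupled receptors, 29 were tested, 9 were higher in α-cells, 16 were higher in β-cells and 4 were not called. So 86.2% of the tested ones were called, beside 37.2% of all tested genes. The median was -2.06, or -1.95 with *Vipr2*, which had no UMI in α-cells, at its bound. Beside *Avpr1b*, α-cells had *Oxtr*, the oxytocin receptor, at 116 and 119 CPM against 2.68 and 3.15 in β-cells (5.34 ± 0.20). *Sstr2*, the receptor through which somatostatin restrains glucagon, was at 37.1 and 20.7 CPM against 2 UMIs in β-cells (ratio 380.3, 101 to 3209.8). *Adrb1*, a β-adrenergic receptor, was at 21.2 and 14.6 CPM against 3 UMIs (ratio 159, 50.7 to 807). The lipid receptors *Ffar4* and *Gpr119* were higher in α-cells by 3.72 and 2.55. In β-cells, the fatty acid receptor *Ffar1* was at 192 and 217 CPM against 19.1 and 34.5 (-2.90 ± 0.16), and the incretin receptor *Gipr* at 58.6 and 47 against 12.7 and 12.3 CPM (-2.06 ± 0.23). The glucagon receptor *Gcgr* was at 35.4 and 19 CPM against 1 UMI in α-cells (ratio 68.1, 12.2 to 2695), and *Galr1*, *Adra2a* and *Gabbr2* were likewise higher in β-cells (ratios of 88.2 and 59.9 for the first 2, from 1 and 2 UMIs in α-cells, and a log2 difference of -5.05). *Glp1r*, the receptor for glucagon-like peptide 1, was at 7.84 and 750.1 CPM in β-cells and 0 and 6.89 CPM in α-cells, so its level differed between the β-cell libraries by more than most genes differed between classes. The replicates were counted with gene models of different Cell Ranger releases, whose part in this was not tested. Without the replicate block *Glp1r* was not called.

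**Figure D5:**
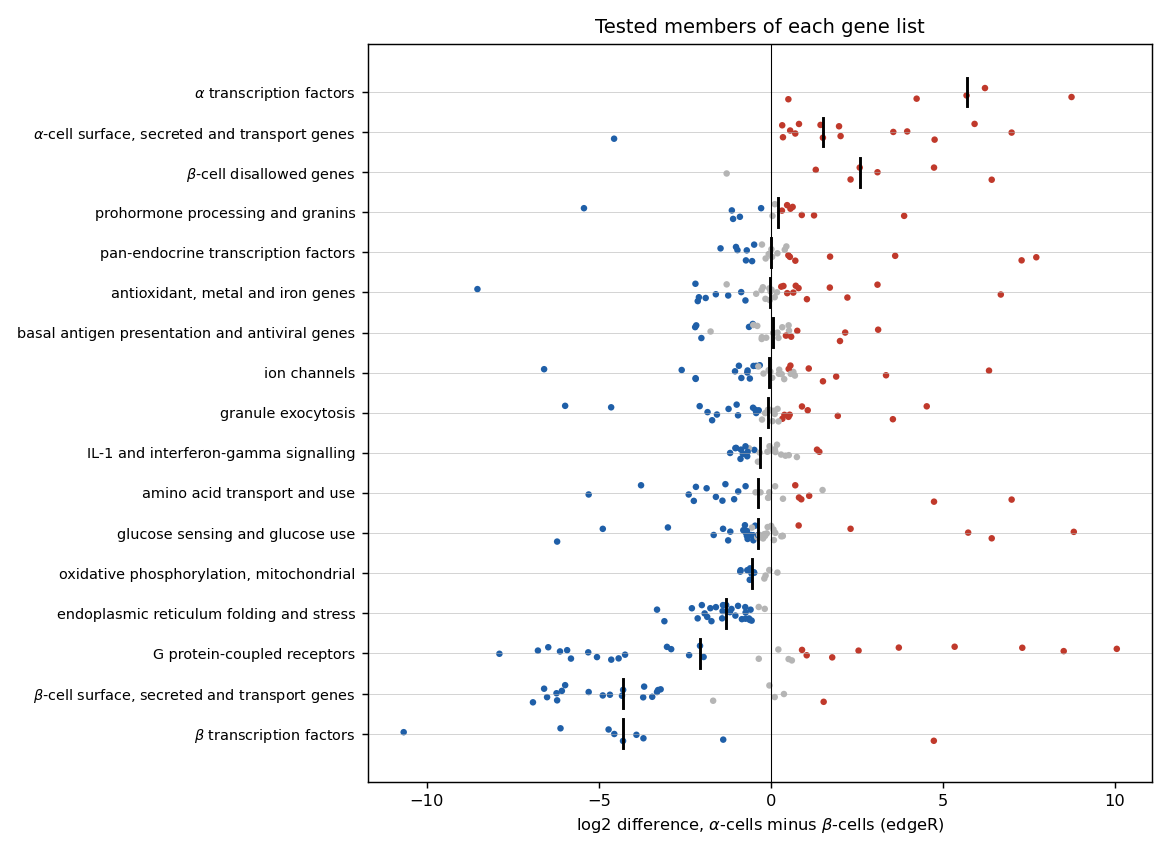
Log2 difference, α-cells minus β-cells by edgeR, of each tested member of 17 gene lists (red, called higher in α-cells; blue, called higher in β-cells; grey, not called), with a black bar at the median of the list, where fitted differences of genes without a UMI in a class, such as Mnx1 and Mt3, depend on the prior count. Medians run from 5.69 for the α transcription factors to -4.30 for the β transcription factors, and the endoplasmic reticulum list has 27 of 29 members in blue.

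Genes that carry signals of interleukin-1 and interferon-γ were present in both classes without cytokine. Of 25 tested, 2 were higher in α-cells, 10 were higher in β-cells and 13 were not called (median -0.32), so 48% were called beside 37.2% of all tested genes. *Il1r1*, the receptor for interleukin-1, was at 289 and 272 CPM in α-cells and 420.0 and 364 CPM in β-cells (-0.48 ± 0.11). Thinned to 5000 UMIs, 64.3% and 62.8% of α-cells and 77.9% and 76% of β-cells had a UMI of it (75.8% and 77.9% of α-cells and 93% and 88.3% of β-cells without thinning). With the libraries that received the inhibitor NMMA alone in place of the untreated ones, the difference was 0.21 and was not called (adjusted p = 0.384 by edgeR's quasi-likelihood test with Benjamini-Hochberg adjustment). *Ifngr1* and *Ifngr2*, the subunits of the interferon-γ receptor, were not called (-0.38 ± 0.29 and 0.43 ± 0.35), nor was *Irf1*, a transcription factor of the interferon response (0.05 ± 0.19). β-cells had more of the kinases *Jak1* and *Irak1*, of *Stat3* and of the adaptors *Traf6* and *Tollip* (-1.03, -0.69, -0.67, -1.01 and -1.18). *Socs3*, a feedback inhibitor, was at 76.4 and 41.4 against 26 and 19.6 CPM and higher in α-cells (1.34 ± 0.18). *Ifnar2*, a subunit of the type I interferon receptor, was higher in α-cells in each library but differed between libraries in both classes (38.2 and 116 against 16.6 and 40.6 CPM), and it was not called without the replicate block. The part of the different gene models of the replicates was not tested for it either. *Nos2* and *Socs1* did not pass the low-count filter.

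Antigen presentation and antiviral genes divided without a common direction. Of 24 tested, 6 were higher in α-cells, 5 were higher in β-cells and 13 were not called (median 0.07), so 45.8% were called beside 37.2% of all tested genes. *Ifih1*, the sensor MDA5 of viral double-stranded RNA, was at 74.3 and 68.2 CPM in α-cells and 15.6 and 16.2 CPM in β-cells (2.16 ± 0.18), and *Ifitm2*, which blocks virus entry, at 188 and 152 against 46.5 and 37.7 CPM (2.01 ± 0.12). The class I heavy chain *H2-D1* was higher in α-cells (0.59 ± 0.11), its light chain *B2m* was higher in β-cells (-0.52 ± 0.11), and *H2-K1* was not called (-0.26 ± 0.11). *Irf7*, which amplifies the interferon response, was at 17.5 and 36.1 CPM in β-cells and 5.31 and 6.89 CPM in α-cells (-2.17 ± 0.33). *Ifitm3* was at 44.6 and 7.66 CPM in α-cells and 1.0 and 5.72 CPM in β-cells, with libraries that differ in opposite directions, and DESeq2 did not call it.

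Antioxidant, metal and iron genes were called in both directions. Of 31 tested, 11 were higher in α-cells, 9 were higher in β-cells and 11 were not called (median -0.03). So 64.5% were called, beside 37.2% of all tested genes. Beside *Gpx3*, α-cells had more of the peroxiredoxins *Prdx4* (184 and 129 against 36.3 and 30.1 CPM, 2.23 ± 0.12) and *Prdx2* (0.81 ± 0.11) and of *Txnip*, which binds thioredoxin (1.72 ± 0.12). β-cells had more ferritin RNA, with -0.74 for the heavy chain *Fth1* and -1.60 for the light chain *Ftl1*, and more *Hmox1*, the heme-degrading enzyme that releases iron (85.1 and 69.5 against 23.3 and 13.8 CPM, -2.09 ± 0.20). The metallothioneins *Mt1* and *Mt2* were higher in β-cells within each library, at 1553 and 4301 against 383 and 853 CPM and 389 and 1371 against 108 and 280.3 CPM, although replicate 2 had the higher level in both classes and neither was called without the replicate block. *Mt3* had no UMI in α-cells and was at 5.53 and 6.65 CPM in β-cells, at least 4.4-fold higher. *Sod1*, *Sod2*, *Gclc*, *Gclm* and *Txnrd1* were not called.

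RNA of the mitochondrial genome was higher in β-cells for 9 of 13 genes and not called for 4 (median -0.55). So 69.2% were called, beside 37.2% of all tested genes. *mt-Co1*, a subunit of cytochrome oxidase, was at 14828 and 13957 CPM in β-cells and 7968 and 7581 CPM in α-cells (-0.89 ± 0.15), and *mt-Cytb* at 8007 and 6985 against 5067 and 4783 CPM (-0.60 ± 0.14). The share of mitochondrial UMIs among all UMIs, hormones included, was 4.42% and 4.32% in the median α-cell and 4.78% and 4.14% in the median β-cell, and the difference above is relative to non-hormone RNA only. Of the nuclear genes of oxidative phosphorylation, 25 of 79 were higher in α-cells and 9 higher in β-cells (median 0.16), and 43% were called beside 37.2% of all tested genes. DESeq2 called 11 and 4 of them, and 10 and 7 were called in the NMMA-alone libraries. Among them *Cox6a2*, a muscle-type subunit, had the largest β-cell difference (-3.45 ± 0.49) and *Ndufb4*, of complex I, the largest α-cell difference (0.80 ± 0.11). For cytosolic ribosomal proteins 31 of 83 were higher in α-cells and 2 higher in β-cells (median 0.22), and 39.8% were called. Without the replicate block 4 nuclear oxidative genes were called in each direction, and 4 and 0 ribosomal genes, and with scaling by total non-hormone UMIs 47 and 1 ribosomal genes were called.

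Libraries from the same pools that received 2 mM NMMA alone, a nitric oxide synthase inhibitor, gave a second set of α- and β-cells. They are not independent of the untreated islets, and they are given side by side. With 54 and 95 α-cells and 669 and 585 β-cells, 3397 of 11662 genes were called (29.1%), 1506 higher in α-cells (12.9%) and 1891 higher in β-cells (16.2%). The log2 differences there were 7.55 for *Irx1*, 5.70 for *Irx2*, 4.59 for *Ttr*, 6.29 for *Gpx3*, -7.23 for *Mafa*, -4.58 for *Pcsk1*, -6.13 for *Slc2a2* and -5.29 for *Ucn3*. Of the genes named above for the largest differences, all but *Trpm5* (-7.46) and *Msln* (-6.75) differed less there than in untreated islets. *Vstm2l* differed by -4.04, with 4.1 and 6.97 CPM in α-cells, *Gm27033* by -3.70, *Prlr* by -4.26 and *Rcn3* by 5.71. All 5 α factors were again higher in α-cells and 8 of 9 β factors higher in β-cells, and 27 of 29 endoplasmic reticulum genes were higher in β-cells with a median of -1.53. Of 83 ribosomal protein genes 4 were called there, and 1 of 13 mitochondrially encoded genes. *Pax6*, *Pcsk2*, *Chgb* and *B2m*, called in untreated islets, were not called there. In replicate 2 of these libraries *Gcg* in β-cells reached 0.570% of its α-cell level.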

How the data were processed

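For every library the values deposited by the authors are raw UMI counts, 1 per gene and barcode. The submitters' processing notes name Cell Ranger and mm10, and per the file headers the matrices of replicate 1 came from version 3.0.0 and those of replicate 2 from version 6.0.0. The study's methods name the v3 kit and the labels v2. Gene IDs listed in both versions were used (30406 of 31053 and of 32285), with positions from GENCODE M21. Barcode limits on genes and mitochondrial UMIs follow the study's methods. Scrublet (scanpy 1.11.5) called 8 of 2073 and 5 of 926 untreated barcodes doublets, too few to rely on, and they were removed only as an alternative.

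UMI counts were summed per class and library without the 6 hormone genes, which gave 4 sums, and edgeR 4.0.16 (R 4.3.3) tested them with the library as a block: genes passed filterByExpr, scaling was TMM, the quasi-likelihood fit was robust, and Benjamini-Hochberg adjustment covered all tested genes with a threshold of 0.05. The library pairs the classes by construction. Both replicates are separate pools of islets. The SE of a log2 difference is the difference divided by the square root of the F statistic of the same fit, and not the spread of that gene between the 2 pools. In simulated data of this design with 11405 genes, 63.3% of 98 genes changed 2-fold and 88.4% of 95 changed 4-fold were recovered, and 3.95% of 152 calls were false. The simulation used profiles pooled over both classes, the dispersion trend without dispersion of single genes, and few changed genes in balanced directions. Its false share therefore does not describe the calls in the data. Intervals of shares and of ratios with 1 to 3 UMIs are exact at 95% and cover counting error only, and 3 counts over both sums served as the floor for 0. Alternatives include DESeq2 1.42.0, other scalings, filters, gates and depths. Libraries share at most 5 barcodes.

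Named genes are the 12 called genes with the largest difference in each direction that agreed in both libraries and had at least 50 CPM in both libraries of the higher class, and members of 28 gene lists. A few genes are not reported here and were left out of the lists and their counts. The classes and lists were chosen with earlier results of these data known. The pattern for ribosomal proteins was corrected afterwards to drop S6 kinases.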

Additional observations from a re-analysis of the deposited data

How the results depend on the processing

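The number of called genes was within 1.5 times of 4396 under 16 of 24 alternatives. The others were DESeq2 (1824 genes), Bonferroni adjustment (1854), a minimum of 2-fold (2043), each cell thinned to 1500 non-hormone UMIs (1159 of 7094 tested genes) and leaving out 1 of the 4 sums in turn (2212 to 2314), where the lone sum of a class is assumed to vary like the others. Fewer samples or fewer UMIs enter the last 2 by construction. With the 50 UMI minimum 3809 genes were called, with no low-count filter 4191, with *Gcg* at least 80% of hormone UMIs 3898, with hormone carry-over subtracted 4410, and with β-cell sums thinned to the α-cell total 3122. Cells of 20 or more marker UMIs of another cell type were left out as an alternative chosen after seeing the data (4433), and of the 181 called genes named in the text *Fcer1g* alone was not called there.

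Without the replicate block, which pairs the classes by library, 2979 genes were called (1338 higher in α-cells, 1641 higher in β-cells), all of them among the 4396, and 20 of the 181 genes were not called, among them *Cd24a*, *Cacna1d*, *Aldoa*, *Peg3* and *Meis2*. DESeq2 did not call *Tshz2*, *Mnx1*, *Cd24a*, *Chgb*, *Ifitm3*, *Glis3*, *Meis2*, *Lmo4*, *Ass1*, *Cacna1c*, *Traf6*, *Cox6a2*, *Hhex*, *Hspa1a*, *Mbp*, *Cd68* and *Fcer1g*. Scaling by total non-hormone UMIs changed no call among the 181. In the NMMA-alone libraries 2 were reversed without being called there, *Il1r1* (0.21) and *Col1a2* (-0.30). *Hspa1a* was reversed without replicate 2 of the β-cells, in a fit that also had no replicate block (0.17, with -1.92 as the other extreme over the sums left out). The cause was not tested. In 50 of the 181 genes, 18 of them with at most 3 UMIs in a class, the fold within 1 library alone was over 1.5 times off that from both. Where the text gives no values by library, the log2 differences in replicates 1 and 2 were 2.39 and 0.96 for *Cd24a*, -4.10 and -5.49 for *Gabbr2*, -5.56 and -4.65 for *Gad1*, -6.59 and -5.83 for *Rasgrf1*, -2.46 and -1.47 for *Phgdh*, 2.42 and 4.46 for *Scn3b*, -1.86 and -5.83 for *Cox6a2* and -4.08 and -2.49 for *Robo1*. The α-cell sums of 883818 and 1280082 UMIs limit what can be seen of genes low in α-cells.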

Other observations

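Some genes used as markers of other islet and pancreatic cell types differed strongly between the classes. *Rbp4*, the retinol carrier that δ-cells also make, was at 3156 and 2353 CPM in α-cells and 56.1 and 38.5 CPM in β-cells (5.87 ± 0.14), and after thinning to 5000 non-hormone UMIs it was found in all α-cells and in 10.7% and 8.58% of β-cells (17.7% and 21.8% of β-cells without thinning). *Nxph1*, a neurexin ligand, was at 60.5 and 60.5 against 3.1 and 2.57 CPM (4.39 ± 0.26), while *Hhex*, the factor that defines δ-cells, was at 5.31 and 5.36 against 0.579 and 1.52 CPM (2.38 ± 0.66) and *Sstr3* was higher in β-cells (-1.95 ± 0.17). Of this list of 11, 5 were tested. *Spp1*, the secreted protein osteopontin that marks ducts, was at 2650.1 and 1641 CPM in α-cells and 26.1 and 36.9 CPM in β-cells (6.11 ± 0.14) and was found in 83.3% and 82.6% of thinned α-cells and 8.81% and 13.8% of thinned β-cells (87.9% and 81.1% of α-cells and 21.4% and 30.6% of β-cells without thinning). Of the other duct markers, *Muc1* was higher in α-cells (2.81 ± 0.41), *Krt7* was higher in β-cells (-0.96 ± 0.12), and *Sox9*, *Cftr* and *Mmp7* did not pass the low-count filter.

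Adhesion and guidance genes were called in both directions, 11 of 26 higher in α-cells and 9 higher in β-cells (median 0.32). So 76.9% were called, beside 37.2% of all tested genes. *Sema3e*, a secreted semaphorin, and *Ntn4*, a netrin, were higher in α-cells, at 32.9 and 36 against 1.21 and 1.63 CPM and 14.9 and 23 against 0.526 and 1.4 CPM. The adhesion molecules *Cadm1* and *Epcam* were also higher in α-cells (2.37 ± 0.17 and 1.47 ± 0.11). β-cells had more *Robo1* (-3.14 ± 0.39) and E-cadherin (*Cdh1*, -1.33 ± 0.13), and more of the gap junction gene *Gjd2* (109 and 112 against 11.7 and 12.3 CPM, -3.20 ± 0.21). Among 19 genes of heat shock and cell dissociation, 4 were higher in α-cells and 6 in β-cells (median 0.0024), so 52.6% were called. The β-higher *Hspa1a* and *Dnajb1*, inducible chaperones, were higher in replicate 2 than in replicate 1 of the β-cells, *Hspa1a* with 99.8 and 426 CPM and *Dnajb1* with 36.2 and 95 CPM. In α-cells *Hspa1a* was at 79.6 and 143 CPM and *Dnajb1* at 30.8 and 27.6 CPM. Without the replicate block 2 of the list were called higher in α-cells and 0 in β-cells.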
